A study of Mus musculus with 4 samples.

Results

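The neural lineage and neuronal genes described here are 45 rows of a count table of 49997 genes, found by their symbols. They comprise transcription factors of the neuroectoderm, the proneural and Notch genes that act at the onset of neurogenesis, and genes of the neuronal cytoskeleton, cell surface, growth cone and synapse. The 45 genes were proposed with results of the same comparison in view, so their counts of changed genes and their fold changes are given as a description and not as an independent test of the group. RNA-seq was run on E14, a pluripotent embryonic stem cell (ESC) line from the early mouse embryo, to examine what depletion of the m6A reader YTHDF2 does to the transcriptome. The control group, shScramble, carried a scrambled short hairpin RNA, and the knockdown group, shYthdf2, carried a hairpin against Ythdf2. Each group had 2 libraries, and both groups were grown on gelatin in serum replacement medium with leukemia inhibitory factor (LIF). Per the study's methods the hairpins were delivered by lentivirus into ESCs that also held a tdTomato transgene under a MERVL promoter, and stable lines were kept by puromycin selection. The sources used here do not say whether a line was a clone or a pool, nor which hairpin against Ythdf2 these libraries carried. The study's methods call the 2 replicates of a group independent and biological, without saying how they were kept apart. The labels do not say that they came from separate cultures, so the p-values measure the spread between these libraries.

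Each library held between 31113006 and 36422510 counted reads, with reads on 25155 to 25745 genes. Levels are given as CPM, reads relative to the TMM-scaled library size, and comparisons of level between genes as TPM, which also divides by exonic length. A count of 0 allows up to 3 reads, or 0.0833 to 0.0952 CPM, a limit that covers counting error only. Ythdf2, the targeted gene, read 93.4 and 87.6 CPM in shScramble and 31.8 and 30.2 CPM in shYthdf2. It fell by 1.55 on the log2 scale (SE 0.11, adjusted p = 0.000693), so that 34.2% of the mean in the controls was left. The cells carried the markers of their label: Pou5f1, the core pluripotency factor OCT4, read 1069 and 1005 CPM in shScramble and 1221 and 1056 CPM in shYthdf2. Of 12 ESC markers, all tested, 0 passed as higher and 1 as lower in edgeR, where 2.43% and 1.49% of all tested genes did. The marker called lower was Tdgf1, a Nodal co-receptor (log2 fold change -0.47, adjusted p = 0.0411). Nanog, a pluripotency factor, read 977 and 968 CPM in shScramble and 770 and 695 CPM in shYthdf2 (log2 fold change -0.41, adjusted p = 0.0594), and DESeq2 and limma-voom called both Tdgf1 and Nanog lower. At an unadjusted p under 0.05, 0 of these markers were higher and 4 lower, where 11% and 9.8% of all tested genes were. Summed over the 12 markers, the level was 7623 and 7508 CPM in shScramble and 7171 and 6687 CPM in shYthdf2.

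Neural fate starts in the embryo when epiblast cells that receive little BMP and Nodal signal turn on SoxB1 factors such as Sox1 and Sox3 and become neural progenitors marked by nestin. Progenitors are kept dividing by Notch signalling from neighbouring cells, and those that express proneural basic helix-loop-helix (bHLH) factors leave the cycle, express the Notch ligand Dll1 and build the tubulins, filaments and adhesion molecules of a neuron. In ESCs many neuronal genes are held low by the repressor REST, which binds an element called RE1.

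The promoters of 4 members, picked by hand, are shown here as examples. Where a gene had several starts, the one with the most CpG dinucleotides is shown. Crmp1, Neurod1 and Nrcam were called higher in shYthdf2, and Dcx was near 0 in every library. Each run is the 250 bases before a RefSeq start on the build GRCm38.p6 (mm10), 5′ to 3′ on the strand of the gene. Capitals mark the GC box GGGCGG or its reverse complement CCGCCC, letters that the factor SP1 is known to bind. The windows are chr5:37241808-37242057 (plus strand) for Crmp1, chr2:79456637-79456886 (minus strand) for Neurod1, chr12:44328635-44328884 (plus strand) for Nrcam and chrX:143933220-143933469 (minus strand) for Dcx.
Crmp1: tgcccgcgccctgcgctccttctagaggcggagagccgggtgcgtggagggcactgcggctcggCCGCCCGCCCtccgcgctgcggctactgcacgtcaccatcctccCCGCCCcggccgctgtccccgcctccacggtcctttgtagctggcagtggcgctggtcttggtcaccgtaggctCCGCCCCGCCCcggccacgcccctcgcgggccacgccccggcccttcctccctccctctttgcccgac
Neurod1: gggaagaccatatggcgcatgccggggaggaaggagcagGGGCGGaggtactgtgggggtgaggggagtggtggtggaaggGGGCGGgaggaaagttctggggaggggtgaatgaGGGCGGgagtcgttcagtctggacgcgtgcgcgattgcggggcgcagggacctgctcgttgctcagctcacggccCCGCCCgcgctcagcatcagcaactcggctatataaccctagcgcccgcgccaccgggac
Nrcam: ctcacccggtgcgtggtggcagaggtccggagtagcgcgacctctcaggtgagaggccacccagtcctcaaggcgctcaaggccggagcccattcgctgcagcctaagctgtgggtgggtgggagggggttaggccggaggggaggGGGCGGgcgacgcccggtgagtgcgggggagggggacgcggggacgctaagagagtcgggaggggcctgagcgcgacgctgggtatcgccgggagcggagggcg
Dcx: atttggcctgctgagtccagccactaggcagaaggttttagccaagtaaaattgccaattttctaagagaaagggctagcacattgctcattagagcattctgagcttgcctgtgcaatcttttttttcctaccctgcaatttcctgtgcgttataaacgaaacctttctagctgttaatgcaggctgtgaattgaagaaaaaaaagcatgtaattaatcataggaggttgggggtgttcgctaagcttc
These 250 bases hold 30 CpG dinucleotides and 5 GC boxes in Crmp1, 22 and 4 in Neurod1, 25 and 1 in Nrcam, and 3 and 0 in Dcx. For Nrcam the files start the first exon at 44328786, inside the window shown, and for Dcx they end it at 143933396 on the minus strand, also inside the window, so that part of both windows is exon in the files. Windows of the same kind, with 50 bases after the start added, were at hand for 34 of the 45 members. Their median was 18 CpG dinucleotides, against 19 over 13085 tested genes and 7 over all 27025 genes of the table. A GC box on either strand lay in 23 of the 34, or 67.6%, against 62.4% of the tested genes and 38.2% of all. It lay in 4 of 7 members called higher, or 57.1%, and in 15 of 19 tested and not called, or 78.9%. The 4 printed promoters do not stand for the rest. Ank2 and Uchl1, also called higher, had a median of 5 and 9 CpG dinucleotides over their starts and no GC box. The untested Hes5 and Zic1 had 41 and 31 CpG dinucleotides. The letters GGACAGC, which occur within the RE1 consensus, were searched on both strands as well, and neither motif contains the other. They lay in 5 of the 34 members, or 14.7% (Crmp1, Tubb3, Map2, Ank2 and Rtn1), against 8.94% of the tested genes and 7.59% of all. These are matches of letters in a window and not binding sites.

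A total of 37 members passed the filter on low counts, and 8 did not. In edgeR's quasi-likelihood test 11 of the 37 were called higher in shYthdf2 at an adjusted p under 0.05, where 2.43% of all 18341 tested genes were, and 1 was called lower, where 1.49% of all were. At an unadjusted p under 0.05, 16 members were higher and 5 lower, where 11% and 9.8% of all tested genes were. The proposal of the members used this contrast, so nothing is read from these shares or from the counts by role below. The same shares of all tested genes apply to those counts. The 11 higher members were Sox3, Nes, Neurod1, Dll1, Crmp1, Dpysl3, Nrcam, Ank2, Gap43, Atcay and Uchl1, and the lower one was Mapt. The calls nearest the threshold were Nrcam inside it (adjusted p = 0.0420) and Sox11 outside it (adjusted p = 0.0627). Both shYthdf2 libraries lay above both shScramble libraries in 18 members, against 26.2% of all tested genes, and below both in 6, against 25.5%. In the other 13 the groups overlapped. The fitted change was positive in 30 members and negative in 7, with a median log2 fold change of 0.40, where the median over all tested genes was 0.00. DESeq2 called 14 members higher and 3 lower, where it called 2.62% and 1.97% of 30565 genes with a read. The criteria of the study, an unadjusted p no larger than 0.05 and a log2 fold change of 1 or more in either direction, gave 9 higher members and 0 lower, where they gave 1.63% and 1.25% of all genes. In bulk RNA, more cells of a type and more RNA of these genes per cell cannot be told apart.

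**Figure D1:**
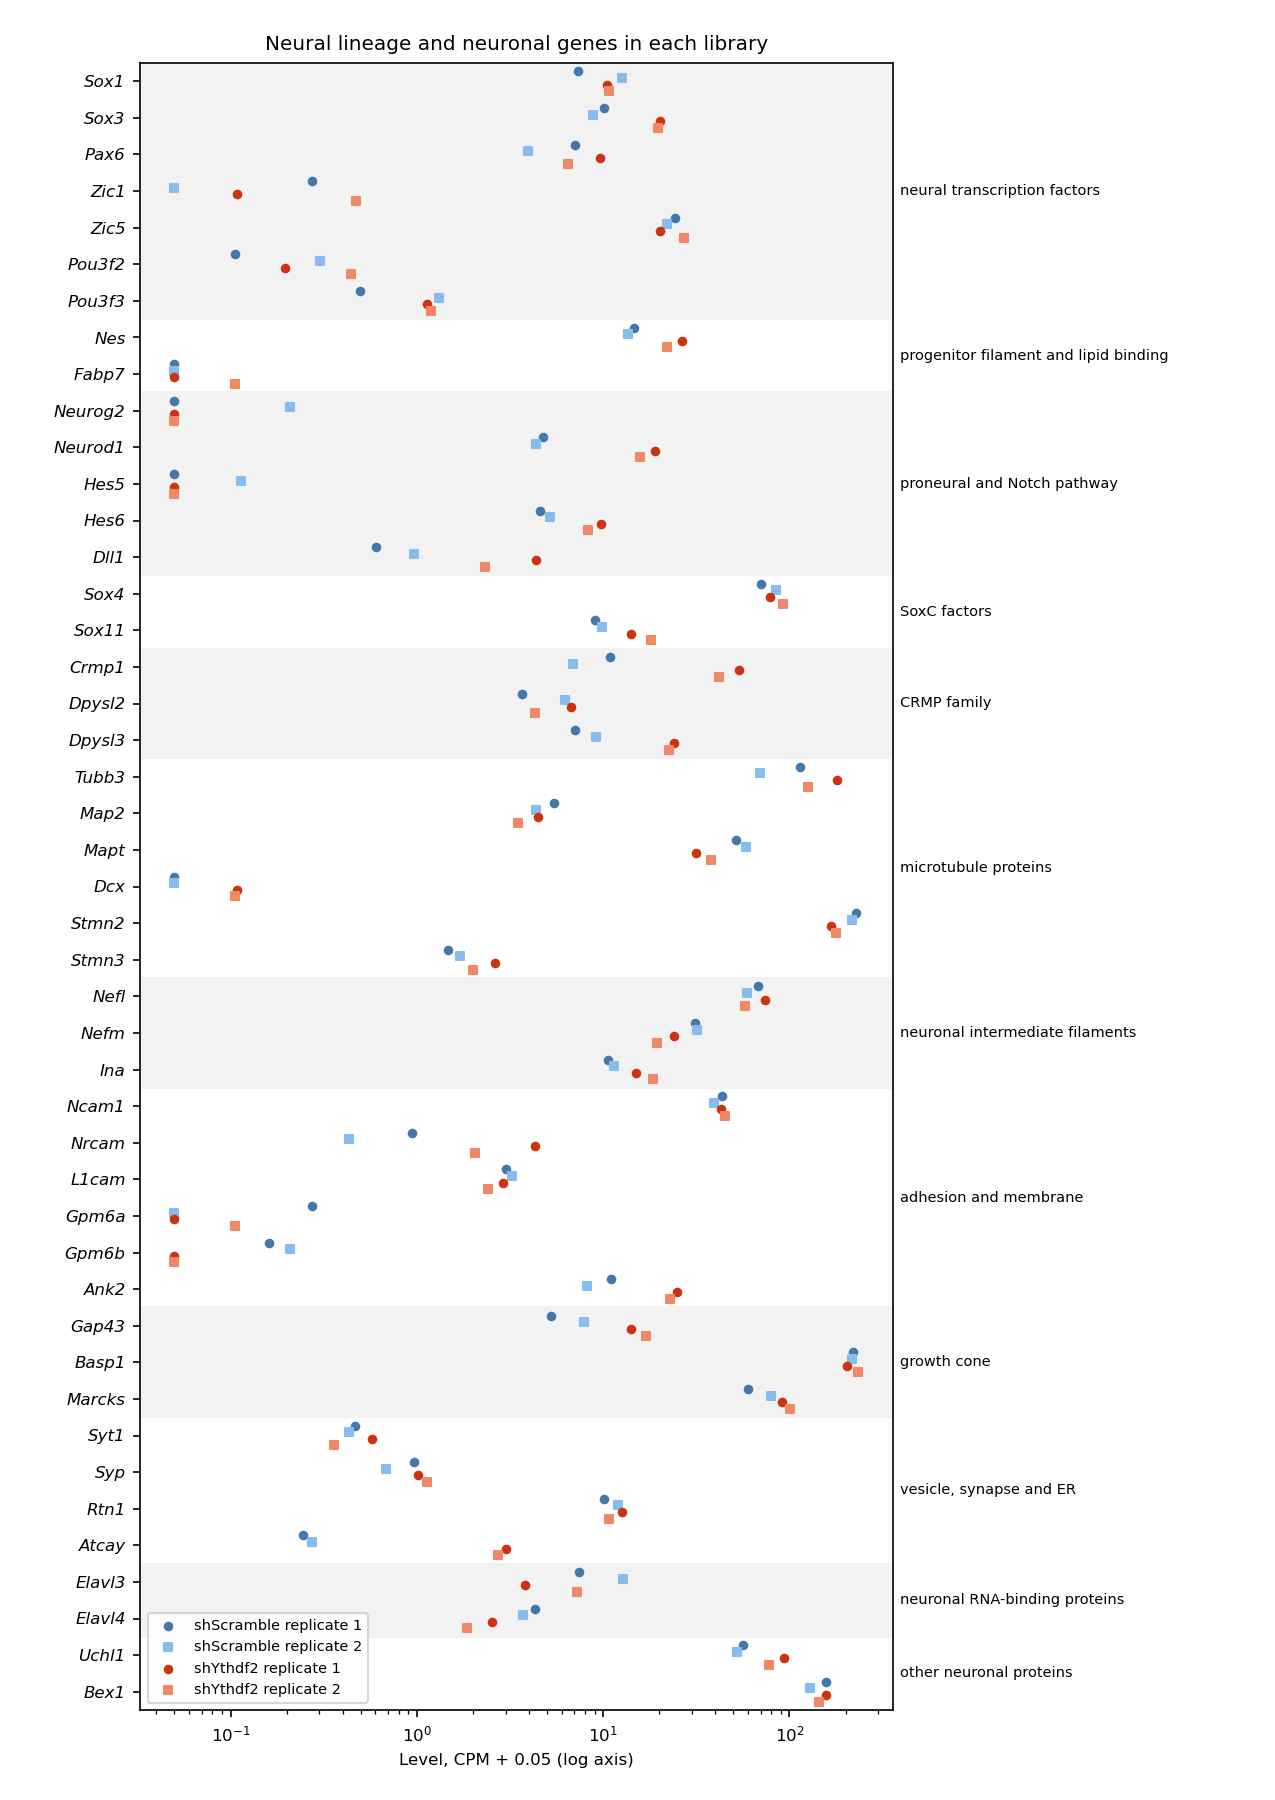
Level of each of the 45 members in each of the 4 libraries, on a log axis of CPM plus 0.05, with circles for replicate 1, squares for replicate 2, blue for shScramble and red for shYthdf2. Rows are grouped by role, points at the left edge are counts of 0, and levels run from 0 to the 234 CPM of Basp1.

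All 5 tested neural transcription factors had a positive fitted change, and Sox3 was the only one called. Sox3, a SoxB1 factor of the early neural plate, read 10.1 and 8.79 CPM in shScramble and 20.2 and 19.6 CPM in shYthdf2. Its groups were well apart, and the log2 fold change was 1.07 (SE 0.18, adjusted p = 0.0144). It is a single-exon gene on chromosome X (mm10, 60891366 to 60893430, minus strand). Sox1, the SoxB1 factor most restricted to neuroectoderm, read 7.25 and 12.5 CPM in shScramble and 10.5 and 10.7 CPM in shYthdf2. Both shYthdf2 values lay between the control values, so no difference in Sox1 was detectable (log2 fold change 0.10, SE 0.26, adjusted p = 0.870). Pax6, a regulator of eye, forebrain and spinal cord, overlapped between the groups as well, with 6.997 and 3.90 CPM in shScramble and 9.62 and 6.45 CPM in shYthdf2 (log2 fold change 0.56, adjusted p = 0.359). An Elp4 exon on the opposite strand covers 22.9% of the exonic bases of Pax6. The counts were made without strand, so reads in these shared bases were dropped. Zic5 and Pou3f3, the remaining tested factors, had log2 fold changes of 0.03 and 0.39, and their groups also overlapped. Of the 5 tested factors, 1 was called higher and 0 lower, and 1 was higher and 0 lower at an unadjusted p under 0.05.

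Nes encodes nestin, the intermediate filament of neural progenitors. It read 14.5 and 13.6 CPM in shScramble and 26.4 and 22.1 CPM in shYthdf2, with all control values below all knockdown values (log2 fold change 0.79, SE 0.17, adjusted p = 0.0347). It lies on chromosome 3 (87971093 to 87980451, plus strand). Without shYthdf2 replicate 1 the log2 fold change was 0.65 and the call was lost. Fabp7, the lipid-binding protein of radial glia, had 2 reads in shYthdf2 replicate 2 and none elsewhere.

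Among the proneural and Notch genes, 2 of the 3 tested were called higher, where 2.43% of all tested genes were. Neurod1, a bHLH factor of neuronal differentiation that also acts in endocrine cells, read 4.72 and 4.32 CPM in shScramble and 19.0 and 15.7 CPM in shYthdf2. The lowest knockdown value was far above the highest control value, and the log2 fold change was 1.94 (SE 0.21, adjusted p = 0.00301), a 3.84-fold difference. The promoter printed above lies directly upstream of this gene on chromosome 2. Dll1, a ligand of Notch receptors, read 0.555 and 0.920 CPM in shScramble and 4.30 and 2.26 CPM in shYthdf2. Its groups were apart, but the shYthdf2 libraries differed from each other more than for Neurod1 (log2 fold change 2.15, SE 0.45, adjusted p = 0.0335). Dll1 lies on chromosome 17 (15367354 to 15376932, minus strand), and its call was lost in limma-voom (adjusted p = 0.0564). Without shYthdf2 replicate 1 the log2 fold change of Dll1 was 1.62 and the call was lost too. Hes6, which is known to oppose Hes1 and to favour neuronal differentiation, read 4.55 and 5.14 CPM in shScramble and 9.71 and 8.27 CPM in shYthdf2. The groups did not overlap, yet Hes6 missed the threshold in edgeR (log2 fold change 0.89, SE 0.23, adjusted p = 0.0637) and passed it in DESeq2 (adjusted p = 0.0224). Neurog2, the proneural factor of cortical neurons, had 5 reads in shScramble replicate 2 and 0 elsewhere, and Hes5, a Notch effector, had 2 reads in that library and 0 elsewhere.

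The SoxC factors Sox4 and Sox11 act in newborn neurons and in other tissues. Sox11 read 8.97 and 9.84 CPM in shScramble and 14.0 and 18.1 CPM in shYthdf2. Its groups were apart (log2 fold change 0.77, SE 0.20, adjusted p = 0.0627), and DESeq2 gave an adjusted p of 0.0143. Sox4 read 70.7 and 84.7 CPM in shScramble and 78.2 and 92.0 CPM in shYthdf2, with overlapping groups (log2 fold change 0.13, adjusted p = 0.621). At 41.0 TPM in shScramble Sox4 was far more abundant per length than Sox11 at 2.80 TPM.

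The CRMP family, cytosolic phosphoproteins that bind tubulin and relay semaphorin signals in growing axons, had 2 of 3 members called higher, Crmp1 and Dpysl3. Over all tested genes 2.43% were called higher. Crmp1 read 10.8 and 6.82 CPM in shScramble and 53.8 and 42.0 CPM in shYthdf2, from 389 and 215 reads to 1840 and 1502 reads. The knockdown values were several times the control values, with a log2 fold change of 2.44 (SE 0.22, adjusted p = 0.00150), or 5.42-fold. Crmp1 lies on chromosome 5 (37242058 to 37292163, plus strand), directly after the promoter printed above. Dpysl3, also called CRMP4, read 7.05 and 9.08 CPM in shScramble and 24.0 and 22.5 CPM in shYthdf2. The groups were apart here too (log2 fold change 1.53, SE 0.19, adjusted p = 0.00464). Dpysl2, also called CRMP2 and the family member most common in mature brain, read 3.64 and 6.22 CPM in shScramble and 6.67 and 4.25 CPM in shYthdf2. Its groups overlapped (log2 fold change 0.15, SE 0.33, adjusted p = 0.851). Whether the responses of the 3 genes differed from each other was not tested.

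**Figure D2:**
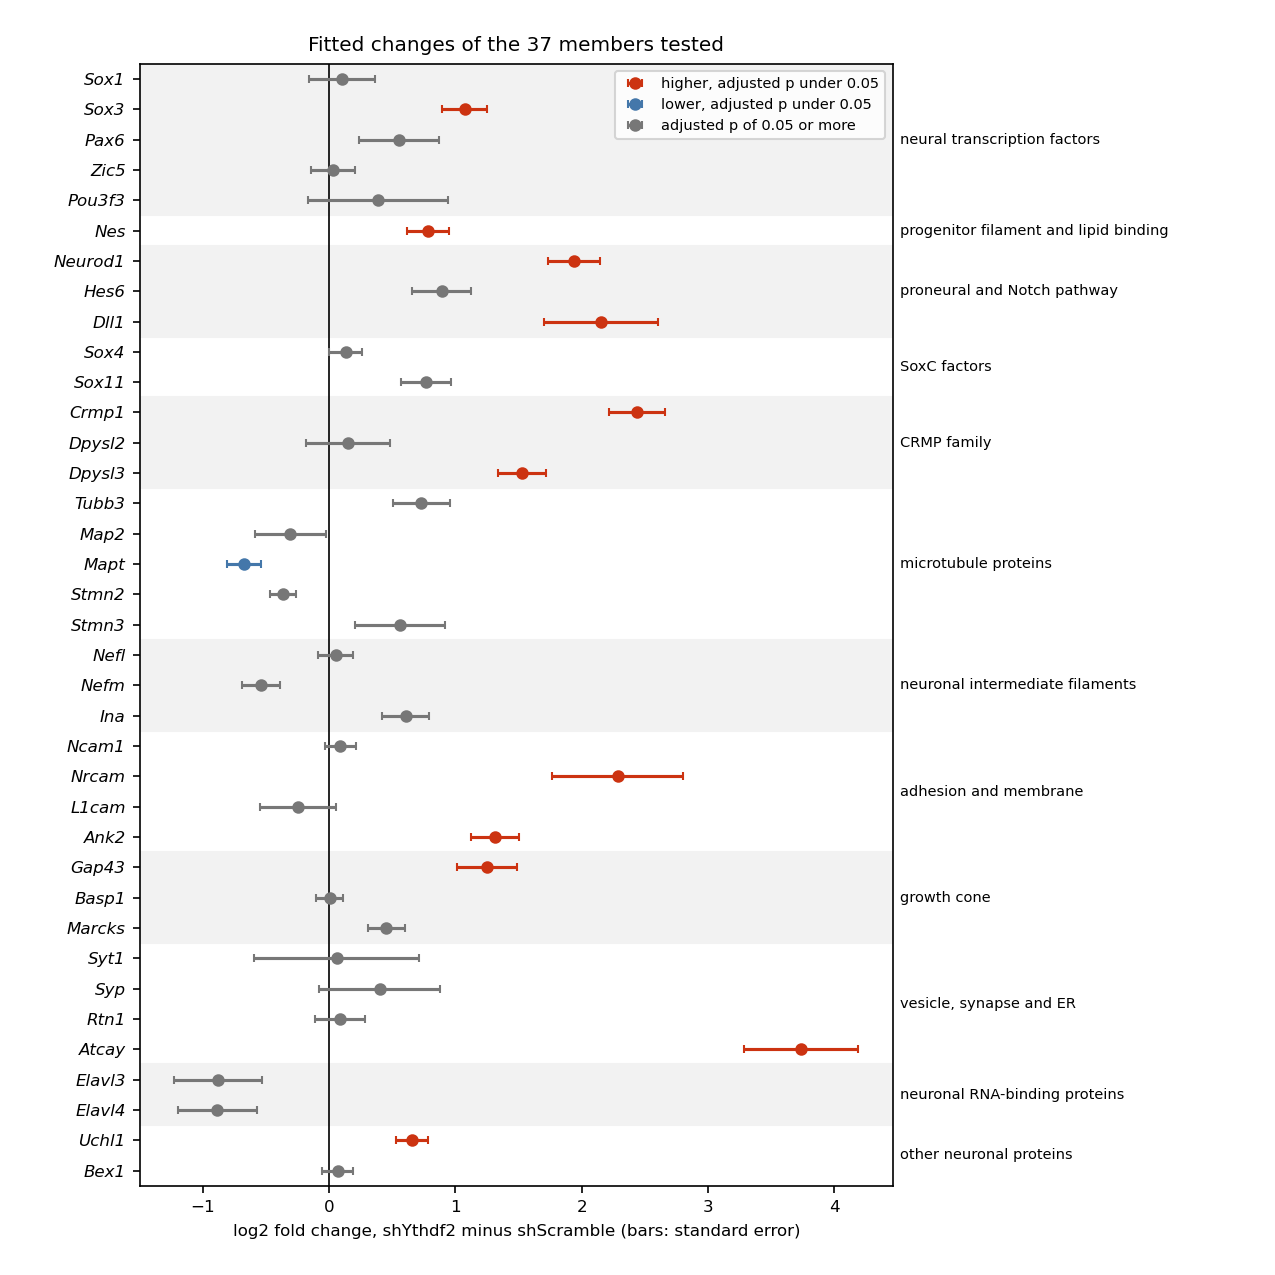
Fitted log2 fold change of the 37 tested members, shYthdf2 minus shScramble, with bars for the standard error, red for members called higher, blue for the member called lower and grey for the rest. Called members appear in most roles, from 3.74 for Atcay to -0.67 for Mapt, and the RNA-binding proteins Elavl3 and Elavl4 lie furthest to the left at -0.88 with grey points.

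The microtubule proteins did not move together. Mapt encodes tau, a stabiliser of axonal microtubules. It read 51.9 and 58.3 CPM in shScramble and 31.4 and 37.8 CPM in shYthdf2, and was the only member called lower in edgeR (log2 fold change -0.67, SE 0.14, adjusted p = 0.0307). Its row joins exons on chromosome 11 (104229409 to 104332090, plus strand) and on an extra contig of the assembly, so the call is absent when such rows are left out. Reads that align to several positions were dropped, so the levels of Mapt and Map2 may be too low. Stmn2, which destabilises microtubules in growth cones, was the most abundant microtubule gene at 293 TPM in shScramble. It read 227 and 216 CPM there and 166 and 178 CPM in shYthdf2. Its knockdown values lay below both controls (log2 fold change -0.36, SE 0.10, adjusted p = 0.0817), and DESeq2 passed the difference (adjusted p = 0.0253). Its relative Stmn3 read 1.42 and 1.65 CPM in shScramble and 2.57 and 1.96 CPM in shYthdf2 (log2 fold change 0.56, adjusted p = 0.415). Tubb3, the neuronal beta-tubulin, read 115 and 69.2 CPM in shScramble and 179 and 126 CPM in shYthdf2. Both knockdown values exceeded both controls, but the libraries of each group also differed widely (log2 fold change 0.73, SE 0.22, adjusted p = 0.102). Map2, a dendritic microtubule protein whose row also spans an extra contig, had a log2 fold change of -0.31 with overlapping groups (adjusted p = 0.585). Dcx, the doublecortin of migrating neurons, had 0 reads in both shScramble libraries and 2 in each shYthdf2 library, all within the limit that a count of 0 allows. Of the 5 tested genes of this role, 0 were called higher and 1 lower, with 1 higher and 2 lower at an unadjusted p under 0.05.

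The neuronal intermediate filaments gave no call in edgeR (0 of 3 higher and 0 of 3 lower), with 1 higher and 1 lower at an unadjusted p under 0.05. DESeq2 called Nefm lower and limma-voom called none. Nefl, the light neurofilament subunit, read 67.9 and 59.5 CPM in shScramble and 74.2 and 58.0 CPM in shYthdf2, with overlapping groups (log2 fold change 0.05, adjusted p = 0.881). Nefm, the medium subunit, read 30.9 and 32.0 CPM in shScramble and 23.9 and 19.5 CPM in shYthdf2. Its knockdown values were the lower ones (log2 fold change -0.54, SE 0.15, adjusted p = 0.0821), while exons of an opposite-strand gene cover 33.3% of its exonic bases. Ina, or alpha-internexin, read 10.6 and 11.4 CPM in shScramble and 15.0 and 18.5 CPM in shYthdf2 (log2 fold change 0.61, adjusted p = 0.101), with 14.6% of its exonic bases shared with Nt5c2 on the opposite strand. The pair Nefm and Ina thus pointed in opposite directions, and neither passed the test in edgeR.

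Of the adhesion and membrane genes, 2 of the 4 tested were called higher, where 2.43% of all tested genes were. Ank2 encodes ankyrin-B, which ties membrane proteins to the cytoskeleton in neurons and in heart. It read 10.996 and 8.19 CPM in shScramble and 25.01 and 22.8 CPM in shYthdf2, with the groups clearly apart (log2 fold change 1.32, SE 0.19, adjusted p = 0.00903). The gene lies on chromosome 3 (126921607 to 127500347, minus strand). Nrcam, an adhesion molecule of the L1 family, read 0.889 and 0.381 CPM in shScramble and 4.27 and 2.01 CPM in shYthdf2. These came from 32 and 12 reads against 146 and 72 reads, and the libraries of each group differed from each other more than in Dll1 (log2 fold change 2.29, SE 0.52, adjusted p = 0.0420). The fold change of Nrcam fell to 1.65 on the log2 scale without shYthdf2 replicate 1 and the call was lost. Leaving out shScramble replicate 1 gave 3.03, and the call was also lost with upper quartile scaling and in limma-voom. Ncam1, the neural cell adhesion molecule, had a log2 fold change of 0.09 and L1cam, which founds the family of Nrcam, one of -0.24, with adjusted p of 0.734 and 0.705. Gpm6a and Gpm6b, membrane glycoproteins of neurons and of oligodendrocyte lineage cells, had at most 8 reads in any library.

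The growth cone genes are all known substrates or partners of protein kinase C signalling at the membrane. Gap43 read 5.19 and 7.87 CPM in shScramble and 14.1 and 17.0 CPM in shYthdf2, with groups apart (log2 fold change 1.25, SE 0.24, adjusted p = 0.0246). It lies on chromosome 16 (42248552 to 42340651, minus strand) and was the only called-higher member whose level in shYthdf2 replicate 2 exceeded that in replicate 1. Basp1 read 219 and 217 CPM in shScramble and 204 and 234 CPM in shYthdf2. The controls lay between the knockdown values, and the fitted difference was near 0 (log2 fold change 0.01, SE 0.11, adjusted p = 0.986), with a sign that changed under 4 of 15 alternatives. Marcks, which is expressed in many tissues, read 60.0 and 80.1 CPM in shScramble and 90.7 and 101 CPM in shYthdf2. Its groups were apart without passing the test in edgeR (log2 fold change 0.45, adjusted p = 0.114), and DESeq2 gave an adjusted p of 0.0443.

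Atcay encodes caytaxin, a neuronal protein that is lost in Cayman ataxia. It had 7 reads in each shScramble library and 101 and 96 reads in the shYthdf2 libraries, or 0.194 and 0.222 CPM against 2.95 and 2.68 CPM. This was the largest fitted difference of any member (log2 fold change 3.74, SE 0.45, adjusted p = 0.00456), and the replicates lay close together in both groups. Even so the level stayed low at 1.78 TPM in shYthdf2. Atcay lies on chromosome 10 (81204504 to 81230845, minus strand), and an opposite-strand gene, Atcayos, covers 1.45% of its exonic bases. The other genes of vesicles, synapse and endoplasmic reticulum showed no called difference. Syt1, the calcium sensor of synaptic vesicles, had 11 to 18 reads in each library. Syp, a synaptic vesicle membrane protein, had 20 to 39 reads, and Rtn1, a reticulon, had 362 to 432 reads, with log2 fold changes of 0.06, 0.40 and 0.09 for the 3 genes.

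The neuronal RNA-binding proteins Elavl3 and Elavl4, which stabilise neuronal mRNAs, were both lower by value. Elavl3 read 7.39 and 12.7 CPM in shScramble and 3.74 and 7.18 CPM in shYthdf2, and Elavl4 read 4.28 and 3.65 CPM in shScramble and 2.49 and 1.82 CPM in shYthdf2. In each gene both knockdown libraries lay below both controls, for Elavl3 by a small margin. Neither passed in edgeR, with log2 fold changes of -0.88 (SE 0.35, adjusted p = 0.187) for Elavl3 and -0.88 (SE 0.31, adjusted p = 0.147) for Elavl4. The count of calls for this role was 0 in edgeR, DESeq2 and limma-voom, and both genes were lower at an unadjusted p under 0.05. Elavl3 depended on single libraries, at -1.22 without shScramble replicate 1 (adjusted p = 0.001794) and -1.42 without shYthdf2 replicate 2 (adjusted p = 0.000481), but -0.43 without shScramble replicate 2 and -0.48 without shYthdf2 replicate 1 (adjusted p = 0.635 and 0.456). Elavl3 was also called with no filter on low counts, and both genes were called with the replicate number as a block. Uchl1, a ubiquitin hydrolase that is abundant in neurons and germ cells, read 56.0 and 52.4 CPM in shScramble and 93.5 and 77.4 CPM in shYthdf2. Its groups were apart (log2 fold change 0.66, SE 0.13, adjusted p = 0.0246), and 18.7% of its exonic bases on chromosome 5 (66676121 to 66687234, plus strand) are shared with the opposite-strand gene Uchl1os. Bex1, a small protein of neurons and other cells, read 157 and 129 CPM in shScramble and 156 and 144 CPM in shYthdf2, with overlapping groups (log2 fold change 0.07, adjusted p = 0.801). The opposite-strand gene LOC115489115 covers 23.4% of the exonic bases of Bex1.

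Abundance per length set the members far apart. In shScramble Bex1 was the most abundant at 415 TPM, at the 98.8th percentile of all genes with a read, followed by Basp1 at 296, Stmn2 at 293, Tubb3 at 132 and Uchl1 at 119 TPM. These 5 genes were the only members above 50 TPM, and 16 members were below 1 TPM. Only Uchl1 of the 5 was called higher. The called-higher members had shScramble levels from 0.106 TPM for Nrcam to 119 TPM for Uchl1, and Crmp1 moved from 6.43 to 34.0 TPM. Summed over all 45 members, the level was 1264 and 1209 CPM in shScramble and 1452 and 1406 CPM in shYthdf2. The 8 members below the filter were Zic1, Pou3f2, Fabp7, Neurog2, Hes5, Dcx, Gpm6a and Gpm6b. Their highest value in any library was 0.419 CPM, that of the roof plate factor Zic1 in shYthdf2 replicate 2, from 15 reads. Zic1 had 8 and 0 reads in shScramble, and Pou3f2, a POU factor of neuronal precursors, had 2 and 8 reads in shScramble and 5 and 14 in shYthdf2.

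**Figure D3:**
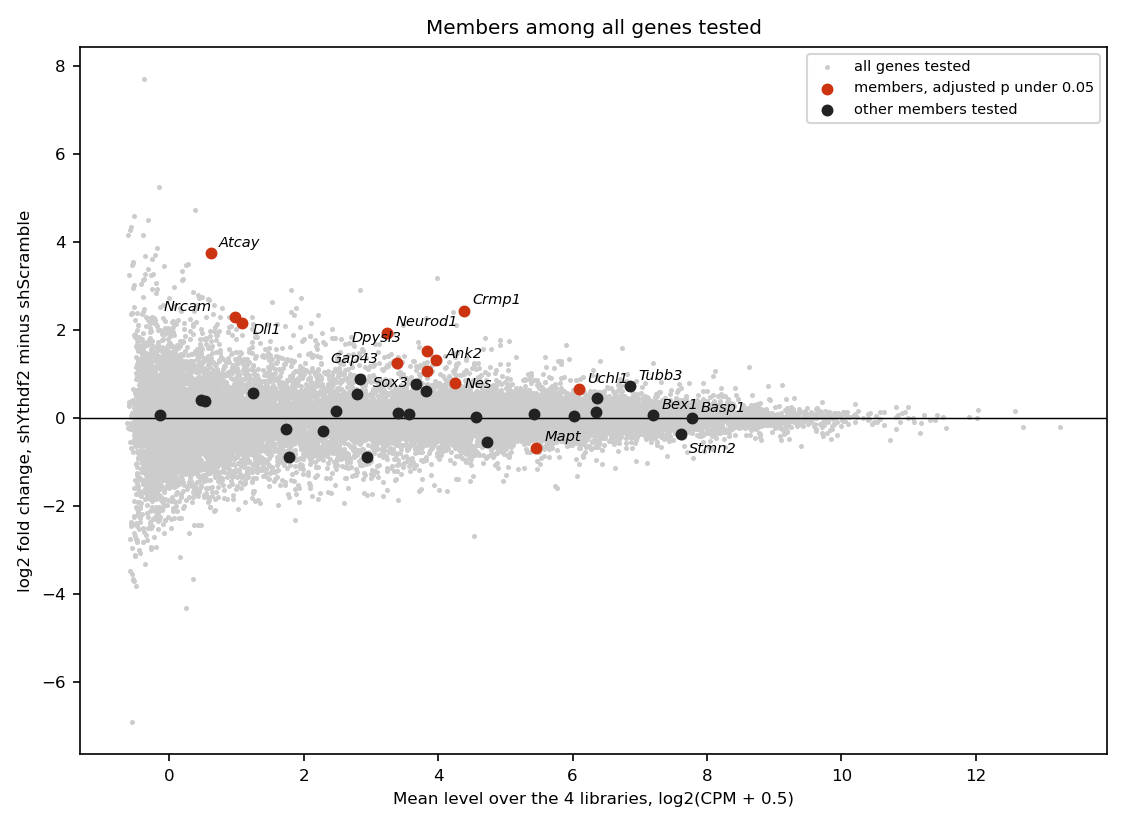
Fitted log2 fold change, shYthdf2 minus shScramble, against the mean level over the 4 libraries as log2(CPM + 0.5), for all 18341 tested genes in grey, called members in red and other tested members in black. Called members lie above 0 except Mapt. Among the abundant members that were not called, Bex1 and Basp1 lie near 0, Stmn2 at -0.36 and Tubb3 at 0.73.

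The 12 calls were also fitted with each library left out. Each such fit leaves 1 library in a group, so the spread comes from the other group alone. Effect sizes are therefore given, and a call gained in such a fit is not read as a result. Of the 11 called higher, 10 had a higher level in shYthdf2 replicate 1 than in replicate 2. The same share over all called genes was not computed, so nothing is read from this count. Without shYthdf2 replicate 1 Dll1, Nes and Nrcam lost their call. Uncalled members shifted as well, and those that passed in such a fit are given here, apart from Elavl3 above. Without shScramble replicate 1 the log2 fold change was 1.04 for Pax6 and 1.14 for Tubb3. Without shScramble replicate 2 it was 0.68 for Marcks and 0.84 for Sox11. Without shYthdf2 replicate 1 it was 0.75 for Ina, 0.53 for Marcks, -0.69 for Nefm, 0.94 for Sox11 and 0.46 for Tubb3. Without shYthdf2 replicate 2 it was 1.00 for Hes6, -0.41 for Stmn2 and 0.96 for Tubb3. The direction of the 12 called members was the same in each of these fits. Their groups did not overlap, so this outcome was fixed in advance. The narrowest range belonged to Atcay, from 3.64 to 3.83, and Sox3, from 0.98 to 1.18, and the widest to Nrcam, from 1.65 to 3.03.

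**Figure D4:**
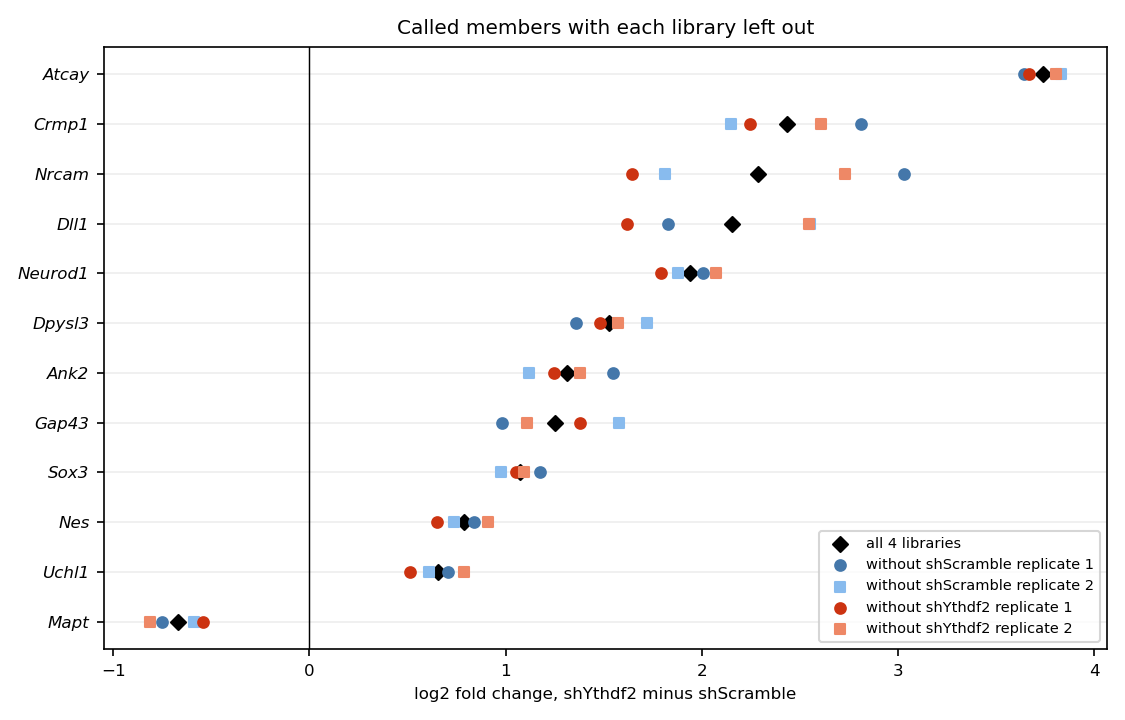
Fitted log2 fold change of the 12 called members, shYthdf2 minus shScramble, with all 4 libraries (black diamonds) and with each library left out (coloured points). No point crosses 0, which was fixed in advance because the groups of these members do not overlap. The points of Nrcam and Dll1 spread most.

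Other genes of the lineage that are not among the 45 were examined from lists. Over all tested genes edgeR called 2.43% higher and 1.49% lower, and 11% and 9.8% were so at an unadjusted p under 0.05. DESeq2 called 2.62% and 1.97% of all genes with a read. Of 33 other neural progenitor genes 21 were tested, 2 of which were called higher in edgeR and 0 lower. Without adjustment 8 were higher and 1 lower at p under 0.05, DESeq2 called 3 higher and 1 lower, and the median log2 fold change was 0.27. Vim, the filament vimentin that progenitors and mesenchymal cells share, read 188 and 198 CPM in shScramble and 438 and 368 CPM in shYthdf2 (log2 fold change 1.06, SE 0.12, adjusted p = 0.00314). Cdh2, or N-cadherin, which replaces E-cadherin in the neural plate, read 1.67 and 1.46 CPM in shScramble and 5.88 and 5.64 CPM in shYthdf2 (log2 fold change 1.88, SE 0.29, adjusted p = 0.0110). Both had their groups far apart. Of 36 other neuronal genes 30 were tested, 1 was called higher and 0 lower, with 2 higher and 1 lower at an unadjusted p under 0.05. DESeq2 and limma-voom each called 1 higher and 0 lower. The gene called higher was Stmn1, a stathmin common in dividing cells, with 236 and 229 CPM in shScramble and 400 and 352 CPM in shYthdf2 (log2 fold change 0.69, SE 0.11, adjusted p = 0.0114). The median of these neuronal genes was -0.12, with 14 positive and 16 negative values. REST and 8 partners were tested as a list of 9, and 0 were called in edgeR, DESeq2 or limma-voom, with 1 higher and 2 lower at an unadjusted p under 0.05. Rest itself read 402 and 385 CPM in shScramble and 411 and 458 CPM in shYthdf2 (log2 fold change 0.14, adjusted p = 0.487). The partners furthest from 0 were Rcor1 at -0.40 and Ehmt2 at 0.26.

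Markers of other cell types were set beside these values. The shares over all tested genes were again 2.43% higher and 1.49% lower in edgeR, and 11% and 9.8% at an unadjusted p under 0.05. In edgeR, DESeq2 and limma-voom 0 markers were called in the lists for neural crest (5 of 8 tested), glia (5 of 8), mesoderm (5 of 8), endoderm (6 of 8), trophoblast (7 of 8), surface ectoderm (5 of 6) and fibroblasts (2 of 6). At an unadjusted p under 0.05 edgeR gave 0 for neural crest, glia, endoderm and surface ectoderm, 1 lower for mesoderm, 1 lower for fibroblasts, and 1 higher and 3 lower for trophoblast. The summed level of neural crest markers was 158 and 108 CPM in shScramble and 123 and 104 CPM in shYthdf2, most of it Foxd3, which ESCs also express. Glial markers summed to 13.8 and 16.1 CPM in shScramble and 16.0 and 17.4 CPM in shYthdf2, mesoderm markers to 27.3 and 26.3 against 26.6 and 20.5 CPM, and endoderm markers to 15.1 and 15.2 against 19.9 and 12.3 CPM. Most of the mesoderm sum was Eomes (21.3 and 20.2 against 19.3 and 15.2 CPM), which is also in the trophoblast list. Trophoblast markers summed to 106 and 111 against 132 and 102 CPM, most of it Tfap2c, while 5 of the 7 tested had a negative change (median log2 fold change -0.69). Krt8, Krt18 and Gata3 were the 3 lower at an unadjusted p (adjusted p = 0.134, 0.110 and 0.108). Tfap2c was the 1 higher (log2 fold change 0.33, adjusted p = 0.226). Cdx2 was higher by value, with 8 and 6 reads in shScramble and 14 and 12 in shYthdf2 (log2 fold change 0.84, adjusted p = 0.560). The sums were 60.2 and 59.1 against 59.9 and 54.5 CPM for surface ectoderm markers, and 4.08 and 2.79 against 1.76 and 2.21 CPM for fibroblast markers. Tfap2b, Aqp4, Cer1 and Dcn were at 0 in every library. Markers of 2C-like cells, a rare state of ESC cultures resembling the 2-cell embryo, did move with the groups. Their sum was 48.6 and 73.6 CPM in shScramble and 93.5 and 244 CPM in shYthdf2, and 2 of 14 tested, Zscan4a and Usp17la, were called higher, both from families of near-identical copies whose shared reads were dropped. Here 12 of the 14 were higher and 0 lower at an unadjusted p under 0.05, with a median log2 fold change of 1.29. DESeq2 called Usp17la, Usp17lb and Zscan4f and limma-voom called Usp17la, so Zscan4a was called in neither. The sum of these markers was highest in shYthdf2 replicate 2. The part of the 2C-like cells and of the lower ESC marker sum in the values of the neural members was not tested.

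YTHDF2 binds N6-methyladenosine in RNA, which is commonly set within the letters GGACU. The letters GGACT were counted, on the sense strand only, in the longest GENCODE protein-coding transcript of each gene. They occurred in 41 of the 45 members, or 91.1%, and in 92.5% of 14063 tested genes. The median was 0.88 occurrences per kilobase over the members and 1.05 over the tested genes. It was 1.10 over the 11 called higher and 0.78 over the 25 tested and not called. Among the called members Crmp1 had 1 occurrence, Nes 11, Ank2 24 and Gap43 none, so members called higher included transcripts rich in and lacking these letters. Mapt, called lower, had 10 occurrences, or 1.90 per kilobase. Such letters are candidates for methylation only, and no methylation was measured in these libraries.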

How the data were processed

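RNA was sequenced from 2 shScramble and 2 shYthdf2 libraries, grouped and numbered by their titles. The authors deposited raw read counts per gene without normalization. Per the file headers they were made with featureCounts 2.0.3 over RefSeq exons of mm10, counting reads rather than pairs. Strand was ignored, although the libraries were stranded. Reads at several positions or over several genes were dropped. Reads in exonic bases that genes on opposite strands share were therefore counted for neither gene. The submitters' processing notes name fastp 0.19.4, HISAT2 2.2.1 and DESeq2 1.40.2. Totals per library were 31113006 to 36422510 reads.

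The deposited counts were fitted with edgeR 4.0.16 in R 4.3.3 (quasi-likelihood F test, two-sided, TMM scaling, filterByExpr with minimum count 10 and minimum total 15, no covariate), with Benjamini-Hochberg adjustment over 18341 genes and calls at an adjusted p under 0.05. The coefficient of biological variation was 15.8%. The smallest two-sided p of an exact permutation test with 2 libraries a group is 0.333, and none was run. Alternatives were other scalings and filters, DESeq2 1.42.0, limma-voom (limma 3.58.1), the criteria of the study, a replicate block, halved counts, rows on extra contigs left out and each library left out. TPM used the exonic length on chromosomes. Promoters came from RefSeq (GRCm38.p6) and transcripts from GENCODE.

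The members and all gene lists were chosen with earlier results of these data known. Values in every library were given for members with an adjusted p under 0.05, the 3 most abundant by TPM, the 3 largest log2 fold changes without a call, and the other members of their families. Values of further members were added where their role is described, after they were seen. In the other lists the genes called in edgeR were named, and the 2 REST partners with the largest change. Naming the 2 largest changes was planned for every list without a call, but was not done for most of them. Further genes of these lists were named after their values were seen.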

Additional observations from a re-analysis of the deposited data

How the results depend on the processing

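Across the alternatives the number of members called higher stayed within 1.5 times of 11, except with the replicate block. DESeq2 called 800 genes higher and 602 lower and 3 members lower. The fit with no filter on low counts called 1095 and 843 genes and 4 members lower, and the criteria of the study and the omission of rows on extra contigs each left 0 members lower. Among other neural progenitor genes the fit with no filter called 6 higher and 1 lower, the criteria of the study called 4 higher, and the stricter filter, DESeq2 and halved counts each called 1 lower. The criteria of the study called 0 of the other neuronal genes higher. Replicate numbers are shared by the groups, but the labels do not say that a number marks a shared culture or day. Deviations of same-numbered libraries from their group means had a correlation of 0.29 over 18341 genes and of 0.415 over the 37 tested members. Still, 2 pairs are too few to take them as pairs. With the number as a replicate block 1851 genes were called higher and 1674 lower, with 17 members higher and 5 lower, 8 and 2 other neural progenitor genes, and 2 and 1 other neuronal genes. All 12 called members were called with the block. With each library left out in turn, calls ranged from 534 to 1175 genes higher and 300 to 1113 lower, and 1 to 3 members lower. Other neural progenitor genes ranged from 2 to 7 higher and 0 to 1 lower, other neuronal genes from 0 to 2 lower, and the median log2 fold change of the members from 0.26 to 0.55. The cause of these shifts was not tested.

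No called member changed direction, and with a library left out none could, because the groups of these members did not overlap. Of the uncalled members, Basp1 was at -0.011 on the log2 scale with upper quartile scaling and at -0.0020 with the stricter filter. With libraries left out, the log2 fold change ranged across 0 in 9 uncalled members, from -0.10 to 0.10 in Basp1, -0.24 to 0.55 in Sox1, -0.19 to 1.32 in Pou3f3, -0.21 to 0.58 in Dpysl2, -0.031 to 0.22 in Rtn1, -0.19 to 0.23 in Zic5, -0.14 to 0.22 in Nefl, -0.37 to 0.40 in Syt1 and -0.063 to 0.22 in Bex1. With 2 libraries a group and a limit of 3 reads, no difference could be judged for the 8 untested members.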

Other observations

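Some progenitor genes outside the 45 lay apart between the groups without a call. Nkx2-2, a factor of the ventral neural tube and of pancreatic islets, had 3 and 1 reads in shScramble and 26 and 16 reads in shYthdf2 (log2 fold change 3.28, SE 0.86, adjusted p = 0.0668). Nr2f2, a nuclear receptor, had 9 and 7 reads in shScramble and 33 and 41 reads in shYthdf2 (log2 fold change 2.14, SE 0.57, adjusted p = 0.0685). Hes1, a Notch effector that opposes proneural factors, read 46.7 and 50.7 CPM in shScramble and 35.6 and 33.6 CPM in shYthdf2 (log2 fold change -0.49, SE 0.12, adjusted p = 0.0579), and DESeq2 called it lower. These genes were picked from their list after their values were seen, and the adjusted p-values are those of edgeR.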
